A study of Mus musculus with 4 samples.

Results

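Chemokine ligands are small secreted proteins that guide leukocytes along a gradient, and they are read here as a gene family in mouse bone marrow stromal cells. The members were the rows of messenger RNA type in the deposited count table whose symbols begin with Ccl or Cxcl followed by a number, with Cx3cl1. Cxcl12 was left out. This gave 36 genes of 44788 rows. One more row, Cxcl11, carries another gene type in the table and was at 0 in every library. RNA was sequenced from bone marrow stromal cells of C57BL/6J mice whose Setd2 gene carries loxP sites on both copies (Setd2 fl/fl). Setd2 encodes the methyltransferase that trimethylates lysine 36 of histone H3. The 2 Cre libraries came from cells that received a Cre lentivirus, whose recombinase deletes the floxed Setd2 segment, and the 2 GFP libraries from cells with a GFP lentivirus. Both groups were at passage 2 and under puromycin at 2 µg/ml for 4 days, so all cells carried the floxed alleles, a lentivirus and the selection. With GFP as the only control, loss of Setd2 and the presence of Cre itself cannot be told apart. Nothing in the labels ties the libraries of a group to different animals or dishes, so the p-values below speak of library-to-library spread alone, and that spread could be technical.

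The family is sorted by the spacing of its first cysteines. CC ligands mostly draw monocytes, macrophages, eosinophils and lymphocytes, and CXC ligands that carry a glutamate-leucine-arginine motif (ELR) before the cysteines draw neutrophils. CXC ligands without that motif include the interferon-inducible ones read by CXCR3 on T cells, and Cx3cl1 and Cxcl16 are made as membrane-bound proteins that can be shed. In bone marrow, stromal cells are known to make the monocyte attractants Ccl2 and Ccl7, while myeloid cells are a well-known source of Ccl3, Ccl4, Ccl6 and Ccl9.

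The 250 bases before the transcription start of the 4 genes that passed the test in the comparison of Cre with GFP follow, with those of Cxcl1 for contrast, 5′ to 3′ on the strand of the gene, from RefSeq on GRCm38.p6. Capitals mark 4 motifs searched on both strands: GGGA and TTCC with any 2 bases between them for NF-kappaB, GAAA and GAAA with any 2 bases between them for the interferon-stimulated response element (ISRE), GAGGAAG for the myeloid factor PU.1, and TATAAA for the TATA box.
Ccl6 (chr11:83593088-83593337, minus strand): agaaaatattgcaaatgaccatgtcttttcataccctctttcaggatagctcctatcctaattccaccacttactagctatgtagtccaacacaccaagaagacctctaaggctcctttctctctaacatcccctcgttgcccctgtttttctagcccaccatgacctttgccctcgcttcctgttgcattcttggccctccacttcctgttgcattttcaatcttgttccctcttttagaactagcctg
Ccl12 (chr11:82101595-82101844, plus strand): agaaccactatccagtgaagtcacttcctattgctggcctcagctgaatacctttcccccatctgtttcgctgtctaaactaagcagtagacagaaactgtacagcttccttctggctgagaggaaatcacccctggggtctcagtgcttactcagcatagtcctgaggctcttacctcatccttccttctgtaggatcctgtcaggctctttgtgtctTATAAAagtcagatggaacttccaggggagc
Ccl9 (chr11:83578637-83578886, minus strand): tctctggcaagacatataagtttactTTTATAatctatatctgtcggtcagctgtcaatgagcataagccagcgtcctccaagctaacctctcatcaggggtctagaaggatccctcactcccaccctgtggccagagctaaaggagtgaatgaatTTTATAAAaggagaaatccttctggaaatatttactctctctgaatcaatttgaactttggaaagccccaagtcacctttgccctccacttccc
Cxcl14 (chr13:56296552-56296801, minus strand): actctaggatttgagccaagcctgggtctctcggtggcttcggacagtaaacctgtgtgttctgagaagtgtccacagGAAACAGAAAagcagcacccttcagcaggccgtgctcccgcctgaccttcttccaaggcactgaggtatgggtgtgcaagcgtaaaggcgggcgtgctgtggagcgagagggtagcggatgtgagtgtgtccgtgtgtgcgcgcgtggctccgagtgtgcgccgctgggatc
Cxcl1 (chr5:90890995-90891244, plus strand): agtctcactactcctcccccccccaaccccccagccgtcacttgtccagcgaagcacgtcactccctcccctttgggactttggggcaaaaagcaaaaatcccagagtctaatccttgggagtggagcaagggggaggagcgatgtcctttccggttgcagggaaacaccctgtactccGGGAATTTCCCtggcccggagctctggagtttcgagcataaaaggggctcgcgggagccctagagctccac

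Ccl12 had a TATAAA match from base -31 to -26 before its start, and Ccl9 had matches at the positions -224 to -219, -94 to -89 and -92 to -87, the last pair overlapping. Cxcl14 had an ISRE match from -172 to -163, counted from a transcript start that lies inside the gene's full RefSeq span, which reaches to 56296811 on chromosome 13. Cxcl1 had overlapping NF-kappaB matches from -71 to -61, and the window of Ccl6 held none of the 4 motifs. Windows were found for 25 of the 36 ligand genes, with 31 windows in all because some genes had several. Ccl2, Ccl7, Ccl5, Ccl4 and Cxcl5 were among the genes without a window and were not searched. For each motif, as many windows as genes held a match. NF-kappaB matches lay in 5 of the 25 genes (Ccl1, Cxcl1, Cxcl2, Cxcl3 and Cxcl10), against 1.21% of all 32851 windows of this length. ISRE matches lay in Ccl19, Cxcl10 and Cxcl14, against 2.98% of all windows. PU.1 matches lay in 5 genes and TATAAA matches in 10, against 10.6% and 12.4% of all windows. A match describes letters only and is not a measured binding site.

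Library totals lay between 14311924 and 14315903 counts in the Cre libraries and between 12371994 and 12806928 counts in the GFP libraries. Setd2 itself had 551 and 468 counts in the Cre libraries, against 1400 and 1250 in the GFP libraries (log2 fold change -1.60, adjusted p = 3.65e-15). Without GFP replicate 2 the adjusted p of Setd2 was 0.124. Counts of the ribosomal RNA gene Rn18s-rs5 made up 1.35% and 1.21% of the counts in the Cre libraries, against 2.07% in GFP replicate 1 and 7.45% in GFP replicate 2, which stood apart. All 10 stromal markers were detected, from Lepr with 53 to 59 counts per library up to Col1a1. Of these markers 3 rose in Cre, namely Thy1 (log2 fold change 0.61, adjusted p = 0.00471), Col1a1 (0.52, adjusted p = 1.39e-07) and Col1a2 (0.29, adjusted p = 0.00123), and Cxcl12 fell (-0.28, adjusted p = 0.00513), while none of the 4 passed without either GFP library. The shares called over all tested genes were 3.74% higher and 3.22% lower. The part of these stromal shifts in the ligand results was not tested. Macrophage markers were abundant as well. Their summed level was 2448 to 2460 CPM (counts scaled to a common library size) in the Cre libraries and 2084 to 2143 CPM in the GFP libraries. Most of this sum was Lyz2, with 1685 and 1697 CPM in Cre, against 1388 and 1409 CPM in GFP. Without Lyz2 the sums were 775 and 751 CPM in Cre, against 696 and 735 CPM in GFP. In such bulk RNA, fewer cells of a type and less RNA per cell cannot be told apart.

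Of the 36 ligand genes, 20 had enough counts to be tested. The monocyte attractant gene Ccl12 and the myeloid ligand genes Ccl6 and Ccl9 rose in Cre, and the stromal ligand gene Cxcl14 fell. The other 16 tested genes did not pass. These calls come from edgeR's quasi-likelihood test with Benjamini-Hochberg adjustment over all 14483 tested genes and a threshold of 0.05, which holds for every adjusted p below. The test called 6.97% of all tested genes, 3.74% higher and 3.22% lower, against 20% of the tested ligand genes. The median log2 fold change was 0.08 over the 20 ligand genes and -0.0045 over all tested genes. The median of the absolute values was 0.29 over the ligand genes and 0.12 over all tested genes. Absolute values grow with counting error, and several ligand genes were rare, down to 42 counts over all libraries for Ccl27a. Genes of like count were not compared, so these medians do not show that the ligand genes shifted more. Both Cre libraries lay above both GFP libraries for 7 ligand genes, as for 24.5% of all tested genes, and below them for 6, as for 25.5% of all tested genes. Among all genes, edgeR called 12 without GFP replicate 1 and 0 without GFP replicate 2, at 2154 and 2197 genes with an unadjusted p under 0.05. No ligand gene passed without either GFP library, which applies to every rise and fall of a ligand gene below.

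**Figure D1:**
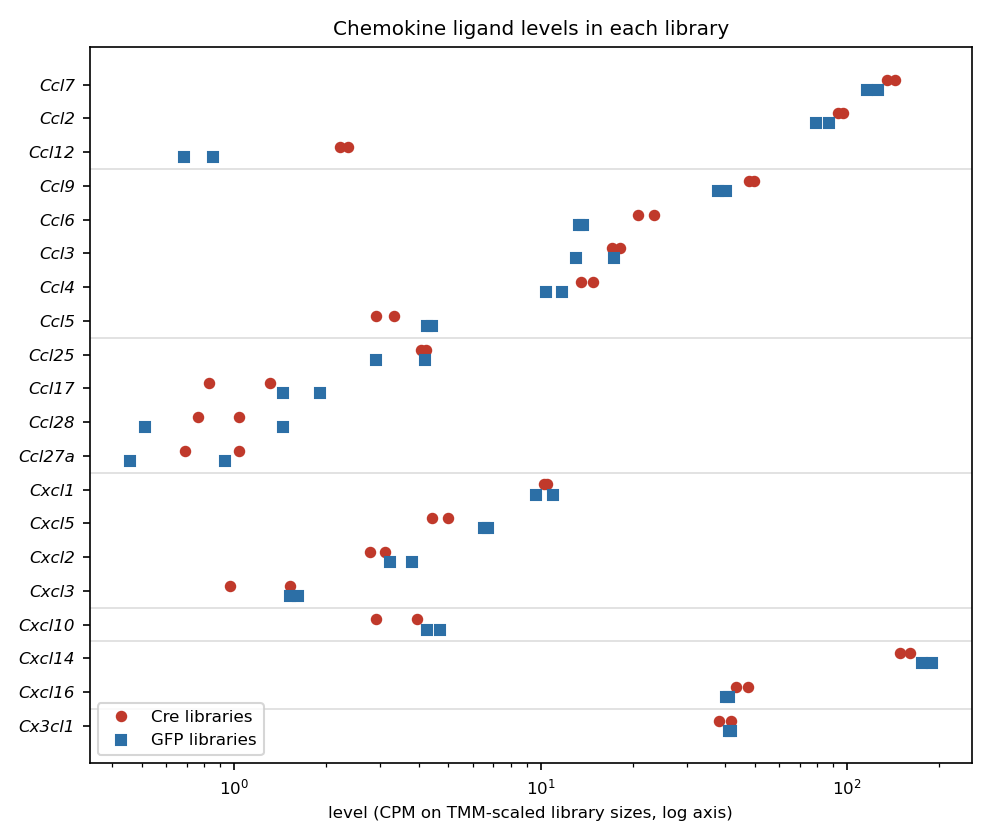
Level of the 20 tested chemokine ligand genes in each library, in CPM on TMM-scaled library sizes on a log axis, grouped by role with grey lines between roles. Red circles are the 2 Cre libraries and blue squares the 2 GFP libraries. Ccl12 at 2.21 and 2.35 CPM in Cre lies apart from 0.685 and 0.852 CPM in GFP, and the symbols of most other genes lie close together.

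The family spent most of its counts on a few genes. Cxcl14, Ccl7 and Ccl2 together made up 63.1% and 63.7% of the ligand counts in the Cre libraries and 66.9% and 64.8% in the GFP libraries. The family without Cxcl12 summed to 597 and 627 CPM in the Cre libraries, against 601 and 573 CPM in the GFP libraries, so the summed level overlapped between the groups. Per length of exon, the levels over the 4 libraries were highest for Ccl7, at 145 to 178 CPM per kilobase. Cxcl14 at 81.1 to 103 CPM per kilobase and Ccl2 at 69.7 to 84.9 CPM per kilobase came next, with ranges that overlapped each other but not that of Ccl7. Ccl3, Ccl4, Ccl9 and Cxcl16 came next with means between 14.3 and 21.4 CPM per kilobase and overlapping ranges from each to the next. Cx3cl1 (9.72 to 10.6 CPM per kilobase) and Ccl6 (7.42 to 13.0) overlapped too. Cxcl1 had a mean of 5.52 CPM per kilobase, and the remaining 10 tested genes lay below 4 CPM per kilobase on average, down to 0.194 for Ccl28. Exon lengths were merged over all GENCODE transcripts of a gene. This length was about the whole RefSeq span for Cxcl1 (1875 bases) and Cxcl10 (2252 bases), and exceeded it for Cxcl3 (3498 bases). Per-length values of such genes may be too low, so the order of genes is uncertain.

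Among the ligands that attract monocytes through the receptor CCR2, Ccl12 rose and the more abundant Ccl2 and Ccl7 did not pass. Ccl12, the gene of monocyte chemoattractant protein 5, had 32 and 34 counts in the Cre libraries, against 9 and 10 counts in the GFP libraries. Both Cre libraries were well above both GFP libraries, at 2.28 ± 0.0956 CPM in Cre and 0.768 ± 0.118 CPM in GFP (SD, n = 2 each). The fold change was 2.96 (log2 fold change 1.57, standard error 0.34, adjusted p = 0.00320), with a 95% interval from 0.88 to 2.26. The gene was rare, and it reached the count filter in both Cre libraries and in 1 GFP library, so a difference was partly needed for it to be tested. Its adjusted p was 0.273 without GFP replicate 1 and 0.247 without GFP replicate 2.

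Ccl7, the gene of monocyte chemoattractant protein 3, had 135 and 143 CPM in the Cre libraries, against 126 and 116 CPM in the GFP libraries. Ccl2, the gene of monocyte chemoattractant protein 1, had 93.4 and 96.6 CPM in Cre, against 87.4 and 79.3 CPM in GFP. Neither gene overlapped between the groups, but the differences were small, with log2 fold changes of 0.19 (adjusted p = 0.0689) for Ccl7 and 0.19 (adjusted p = 0.0981) for Ccl2. Their 95% intervals, 0.06 to 0.33 and 0.05 to 0.33, left out a change as large as that of Ccl12. The ratio of Ccl7 to Ccl2 counts was almost the same in every library, at 1.44 and 1.48 in Cre and 1.44 and 1.47 in GFP. Counts of Ccl12 per 1000 counts of Ccl2 were 23.7 and 24.3 in Cre, against 7.83 and 10.7 in GFP. Ccl8, listed with these genes as a monocyte attractant and not by its receptor, was at 0 in all libraries. The receptor gene Ccr2 was nearly absent, with 4 and 3 counts in Cre and 5 and 2 counts in GFP.

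Among the ligands named for macrophage inflammatory proteins and their relatives, 2 of 5 rose, beside 3.74% of all tested genes called higher. Ccl6, known as C10 and made by myeloid cells in mice, had 338 and 301 counts in the Cre libraries, against 175 and 162 counts in the GFP libraries. In normalized units this was 23.4 and 20.8 CPM in Cre, against 13.3 and 13.8 CPM in GFP. The Cre values were apart from the GFP values by far more than the spread within either group. The fold change was 1.63 (log2 fold change 0.71, standard error 0.11, adjusted p = 8.20e-05), the smallest p-value of the ligand genes. Its adjusted p was 0.246 without GFP replicate 1 and 0.245 without GFP replicate 2, at log2 fold changes of 0.68 and 0.73.

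Ccl9, the gene of macrophage inflammatory protein 1 gamma, a ligand of CCR1 that osteoclasts also make, had 47.8 and 49.5 CPM in Cre, against 40.3 and 38.0 CPM in GFP. The groups of Ccl9 did not overlap, and it rose by 0.31 on the log2 scale (standard error 0.08, adjusted p = 0.0114). Leaving out any single library ended this call, with an adjusted p of 0.0600 without Cre replicate 1, 0.159 without Cre replicate 2, 0.259 without GFP replicate 1 and 0.297 without GFP replicate 2. DESeq2 did not call it (adjusted p = 0.119). Counts of Ccl6 per 1000 counts of Ccl9 were 489 and 420 in Cre, against 331 and 363 in GFP.

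Ccl4 and Ccl3, which activated macrophages release, did not pass. Ccl4 had 13.5 and 14.8 CPM in Cre, against 10.4 and 11.7 CPM in GFP, without overlap (log2 fold change 0.35, 95% interval 0.10 to 0.61, adjusted p = 0.0845). Ccl3 had 18.1 and 17.1 CPM in Cre, against 13.0 and 17.3 CPM in GFP, and GFP replicate 2 lay within the Cre values (log2 fold change 0.23, adjusted p = 0.289). The RefSeq model of Ccl4 reaches over Ccl3 on the opposite strand, so without strand information the counts of both are uncertain, although their GENCODE exons share no bases. Ccl5, also known as RANTES and a T cell attractant, ran the other way, at 3.32 and 2.90 CPM in Cre and 4.41 and 4.26 CPM in GFP (log2 fold change -0.48, 95% interval -0.90 to -0.06, adjusted p = 0.171).

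Macrophage markers moved in Cre too, in both directions. Of 12 tested markers, Mrc1 (log2 fold change 0.42), C1qb (0.31), Cd68 (0.30) and Lyz2 (0.27) rose. Emr1, which encodes the defining F4/80 antigen, fell (-0.30, adjusted p = 0.00293). Over all tested genes 3.74% were called higher and 3.22% lower. Of the 12 markers, 8 had an unadjusted p under 0.05, against 20.9% of all tested genes. DESeq2 called 3 of them higher and 1 lower, and edgeR called none without either GFP library or without Cre replicate 1. Emr1 had 160 and 159 CPM in Cre, against 192 and 200 CPM in GFP. The receptor of macrophage colony-stimulating factor, Csf1r, had 101 and 93.4 CPM in Cre, against 80.6 and 93.9 CPM in GFP, and did not pass (adjusted p = 0.213). The median log2 fold change of the 12 markers was 0.17, beside 0.71 for Ccl6, 0.31 for Ccl9 and 1.57 for Ccl12. Per 1000 CPM of summed markers other than Lyz2, Ccl6 stood at 30.2 and 27.7 in Cre, against 19.1 and 18.8 in GFP. On the same scale Ccl12 stood at 2.86 and 3.13 in Cre, against 0.984 and 1.16 in GFP. Ccl9 had 61.7 and 65.9 in Cre, against 57.8 and 51.7 in GFP, without overlap on this scale. Lyz2, left out of this sum, was the marker with the highest level and rose by 0.27, close to the 0.31 of Ccl9. Emr1, which fell, stayed in the sum. Ccl9 was not set against other sums of the markers. The part of macrophage number or state in the rises of Ccl6, Ccl9 and Ccl12 was not tested.

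**Figure D2:**
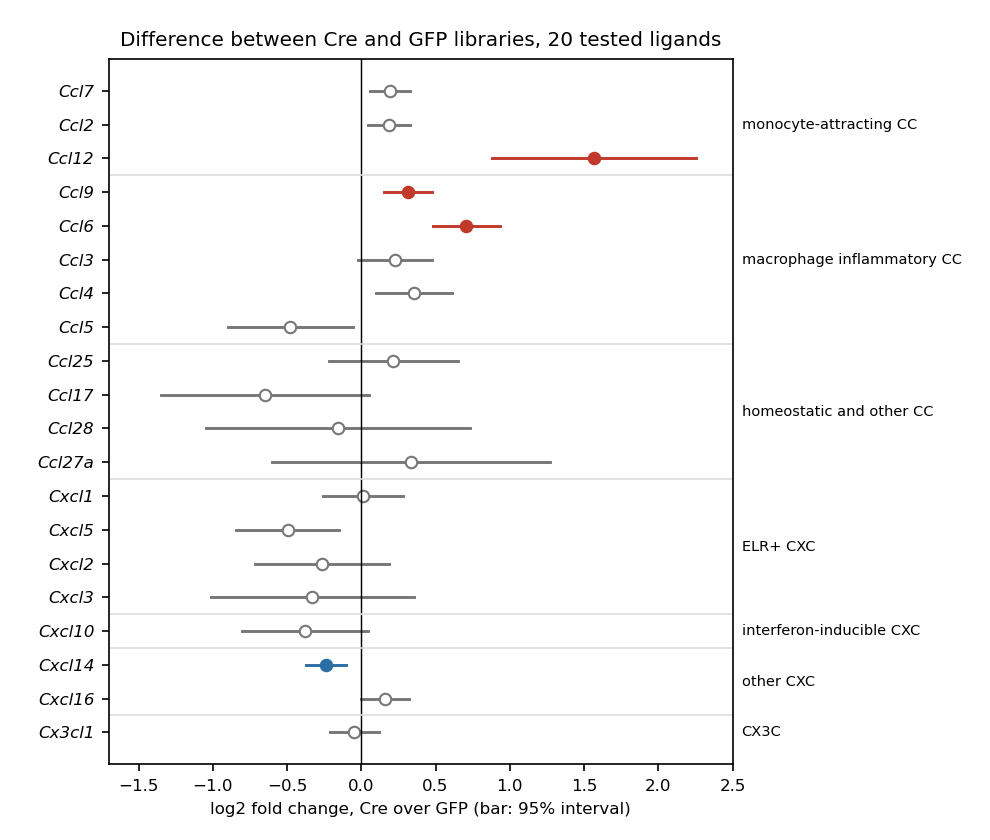
Log2 fold change of each tested ligand gene, Cre over GFP, with its 95% interval, grouped by role. Filled red points passed the test as higher in Cre (Ccl12, Ccl6 and Ccl9), the filled blue point as lower (Cxcl14), and open grey points did not pass. Intervals widen for rare genes such as Ccl27a, from -0.60 to 1.27.

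The rising genes lie in the CC ligand groups of chromosome 11 (GRCm38.p6). The group of Ccl2, Ccl7, Ccl11, Ccl12, Ccl8 and Ccl1 spans 144.2 kb from 82035577 to 82179812, and that of Ccl5, Ccl9, Ccl6, Ccl3 and Ccl4 spans 138.9 kb from 83525778 to 83664683. The gap between them is 1346.0 kb. Ccl12 (82101845 to 82103399) sits between Ccl11 and Ccl8, which had at most 1 count in a library. Ccl6 (83587886 to 83593087) and Ccl9 (83572917 to 83578636) are neighbours. Of the 8 genes tested in both groups, 7 had a log2 fold change above 0, and Ccl5 was the exception. Only Ccl12, Ccl6 and Ccl9 passed, and the interval of Ccl3 (-0.02 to 0.48) included 0. The median over all tested genes was -0.0045, and a shift of the whole region was not tested. No exon bases of Ccl2, Ccl7, Ccl12, Ccl9 or Ccl6 are shared with another GENCODE gene. Of the 50-base stretches of the longest transcript, 2.00% in Ccl9 and none in Ccl6 or Ccl12 occur in transcripts of other genes.

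**Figure D3:**
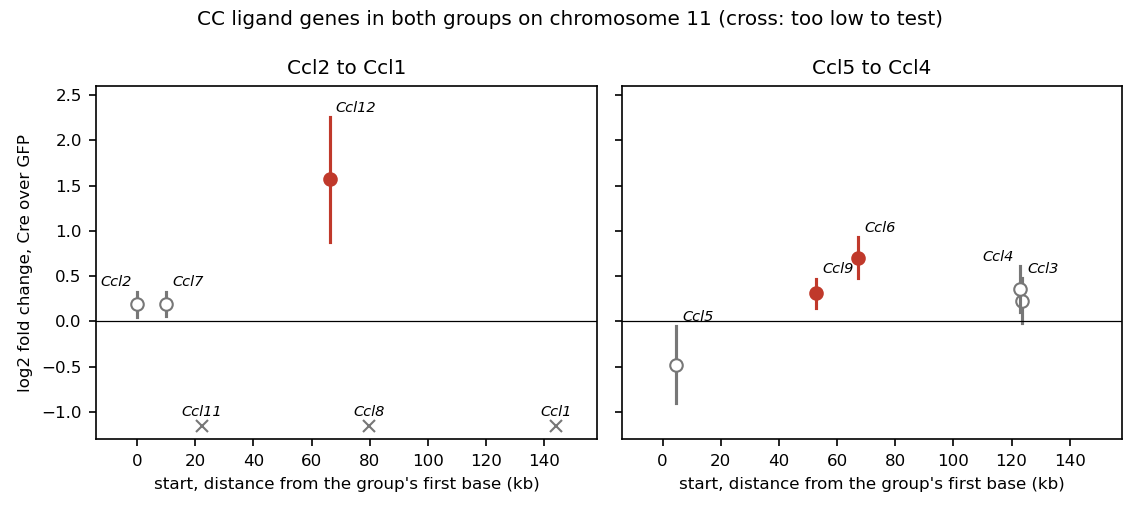
Log2 fold change, Cre over GFP, with its 95% interval, for the CC ligand genes of both groups on chromosome 11, against the distance of each transcription start from the first base of its group in kb. Filled red points passed the test, open points did not, and crosses mark genes too rare to test. Ccl12, Ccl6 and Ccl9 lie above 0, and Ccl5 at -0.48 lies below it.

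Of the CXC ligands among the members, Cxcl14 fell and none rose. Cxcl14, known as BRAK and made at a steady level by many epithelial and stromal tissues, was the member with the most counts. The CXC ligand gene Cxcl12, left out of the members, was higher and fell too, as given above. Cxcl12 had 532 and 555 CPM in Cre, against 689 and 633 CPM in GFP. Cxcl14 had 2142 and 2321 counts in the Cre libraries, against 2482 and 2061 counts in the GFP libraries, which were less deeply sequenced. In normalized units it had 148 and 160 CPM in Cre, against 189 and 176 CPM in GFP, so the groups did not overlap after scaling. It lies on chromosome 13 from 56288643 to 56296811. Its log2 fold change was -0.24 (standard error 0.07, adjusted p = 0.0213). The call was lost with scaling by library size alone (adjusted p = 0.181), in DESeq2 (adjusted p = 0.0719), and without any single library. Those adjusted p-values were 0.359 without Cre replicate 1, 0.0634 without Cre replicate 2, 0.347 without GFP replicate 1 and 0.293 without GFP replicate 2.

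The ELR-bearing ligands that draw neutrophils through CXCR2 did not pass. Cxcl1, also called KC, had 10.2 and 10.5 CPM in Cre, against 9.67 and 10.99 CPM in GFP, and its Cre values lay within the GFP range (log2 fold change 0.01, 95% interval -0.26 to 0.28). Cxcl5, also called LIX, had 4.43 and 4.98 CPM in Cre, against 6.55 and 6.73 CPM in GFP. Its groups did not overlap, but it missed the threshold (log2 fold change -0.50, 95% interval -0.84 to -0.15, adjusted p = 0.0752). Cxcl2, also called MIP-2, had 40 and 45 counts in Cre and 50 and 38 counts in GFP (log2 fold change -0.27, adjusted p = 0.541). Cxcl3 had 22 and 14 counts in Cre and 20 and 19 counts in GFP (-0.33, adjusted p = 0.630). Cxcl2 and Cxcl3 share 5.35% and 3.94% of their 50-base stretches with other genes, mostly each other. Cxcl15, a lung ligand, had 0 and 1 counts in Cre and none in GFP. The receptor gene Cxcr2 was at 0 in all libraries.

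The interferon-inducible ligands were rare. Cxcl10, also called IP-10, had 57 and 42 counts in Cre, against 56 and 55 counts in GFP. After scaling, its 3.94 and 2.90 CPM in Cre lay below the 4.26 and 4.68 CPM in GFP, with a log2 fold change of -0.38 (95% interval -0.81 to 0.04, adjusted p = 0.302). Exons of Art3 lie over 5.91% of its exon bases. Cxcl9 had 7 and 3 counts in Cre and 7 and 5 counts in GFP, below the count filter. Of 26 other genes induced by interferon, 11 fell and 0 rose in edgeR, with a median of -0.29, and those with the smallest p-values were Ifit1 (-0.90), Ifit3 (-0.74), Zbp1 (-0.92) and Usp18 (-0.51). DESeq2 called 2 of them lower and 0 higher, edgeR called 5 lower with scaling by library size alone, and 0 passed without either GFP library. Of the 26, 16 had an unadjusted p under 0.05, against 20.9% of all tested genes.

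The membrane-bound ligands differed little. Cxcl16, a scavenger receptor as well as the ligand of CXCR6, had 43.3 and 47.5 CPM in Cre, against 41.0 and 40.4 CPM in GFP (log2 fold change 0.16, 95% interval -0.0046 to 0.32, adjusted p = 0.257). Exons of Zmynd15 lie over 18.3% of its exon bases, which makes its count uncertain. Cx3cl1, also called fractalkine, had 38.2 and 41.7 CPM in Cre, against 41.0 and 41.6 CPM in GFP. Its groups overlapped, and the interval of its log2 fold change ran from -0.21 to 0.12 (estimate -0.05, adjusted p = 0.790). Its receptor gene Cx3cr1 had 2 and 5 counts in Cre and 2 and 4 counts in GFP.

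The homeostatic and tissue-specific CC ligands were rare or undetected. Ccl25, which draws thymocytes and gut T cells through CCR9, had 59 and 61 counts in Cre, against 55 and 34 counts in GFP (log2 fold change 0.22, 95% interval -0.22 to 0.65). Ccl17, a CCR4 ligand, had 12 and 19 counts in Cre, against 25 and 17 counts in GFP. After scaling its groups did not overlap, but the estimate was wide (log2 fold change -0.65, 95% interval -1.35 to 0.05, adjusted p = 0.284). Ccl28, a mucosal ligand, had 11 and 15 counts in Cre and 19 and 6 counts in GFP, where the GFP libraries differed from each other more than the groups did. Ccl27a, a skin ligand of CCR10, had 10 and 15 counts in Cre and 6 and 11 counts in GFP. Its count is uncertain because 69.2% of its 50-base stretches occur in other genes. Ccl20, the CCR6 ligand, had 6 and 4 counts in Cre and 2 and 7 counts in GFP, below the count filter.

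The other members hardly appeared. Single counts in 1 library each were those of Ccl24, Ccl26 and Ccl27b in Cre and of Ccl1 and Ccl11 in GFP. Together with Cxcl15, Cxcl9 and Ccl20 these made 8 ligand genes with a count but too few to test. Another 8 were at 0 in all libraries, namely Ccl8, Ccl19, Ccl21a, Ccl21b, Ccl21c, Ccl22, Cxcl13 and Cxcl17. A count of 0 allows up to 3 counts in a library, which corresponds to 0.208 and 0.207 CPM in the Cre libraries and 0.228 and 0.255 CPM in the GFP libraries. These limits cover counting error only. The Ccl21 genes are near-identical copies, and reads from them could have been dropped or split by the counting.

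By structure, 13 CC and CX3C ligand genes were tested, of which 3 rose and 0 fell, with a median log2 fold change of 0.22. Of 7 CXC ligand genes tested, which leave out Cxcl12, 0 rose and 1 fell, with a median of -0.27. The difference between these medians was not tested. Of all tested genes, 3.74% were called higher and 3.22% lower. Among chemokine genes whose symbols fall outside the rule, Pf4 (CXCL4) had 19.0 and 17.9 CPM in Cre, against 15.1 and 16.2 CPM in GFP (log2 fold change 0.24, adjusted p = 0.192). Ppbp (CXCL7) had 28 and 28 counts in Cre, against 24 and 29 counts in GFP, and Xcl1 was at 0.

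**Figure D4:**
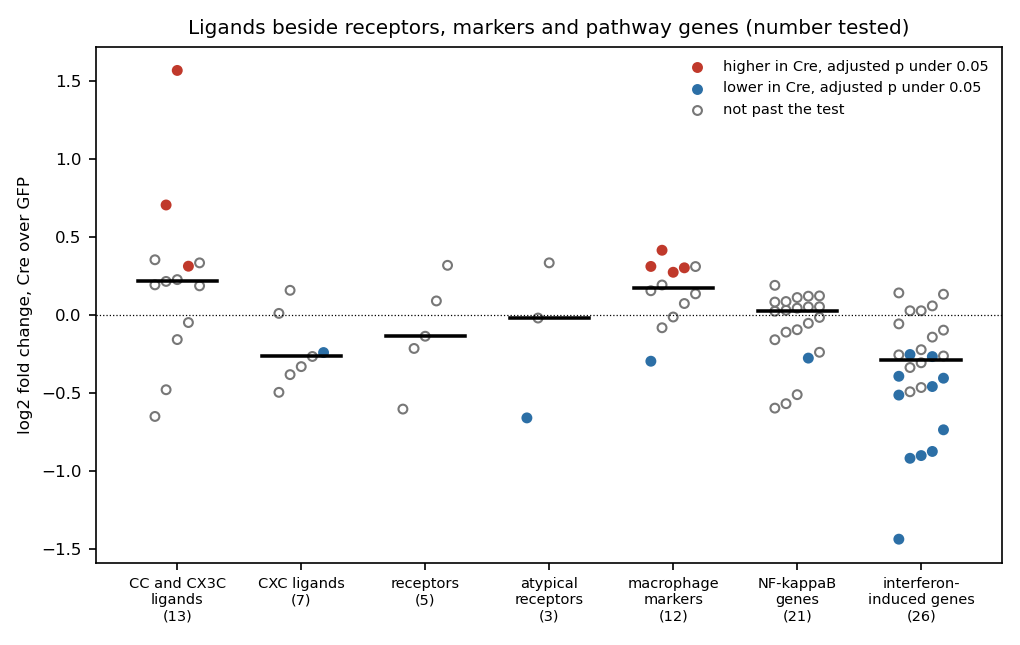
Log2 fold change, Cre over GFP, of every tested gene in the ligand classes and in 5 other gene lists, with the number tested in brackets and a black line at the median. Filled red and blue points passed the test as higher and lower in Cre, and open points did not. The medians stand at 0.22 for CC and CX3C ligands, -0.27 for CXC ligands, 0.17 for macrophage markers and -0.29 for interferon-induced genes.

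Receptors for these ligands were mostly rare, and none of the signalling receptors in the list passed. Of 17 receptor genes, 5 were tested, 0 were called by edgeR or DESeq2, and 1, Ccr1, had an unadjusted p under 0.05. Ccr1, a receptor of Ccl6 and Ccl9, had 35 and 27 counts in Cre, against 35 and 46 counts in GFP (log2 fold change -0.60, 95% interval -1.12 to -0.08, adjusted p = 0.162). Values for Ccr3 were 0.32, for Cxcr4 -0.14, for Cxcr6 -0.21 and for Xcr1 0.09 on the log2 scale, with intervals that include 0. Of the receptors that take up ligands without signalling through G proteins, Ackr4 fell. This scavenger of Ccl19, Ccl21 and Ccl25 had 9.76 and 8.29 CPM in Cre, against 14.9 and 13.5 CPM in GFP (log2 fold change -0.66, standard error 0.13, adjusted p = 0.00146). Its adjusted p was 0.279 without GFP replicate 1 and 0.260 without GFP replicate 2, and exons of Acad11 lie over 8.90% of its exon bases. The scavenger gene Ackr3 had 68 and 80 counts in Cre, against 58 and 43 counts in GFP (log2 fold change 0.33, adjusted p = 0.336). Ccrl2 was at -0.02, and turned to 0.01 with scaling by library size alone.

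Genes of the NF-kappaB pathway, a well-known inducer of Ccl2, Cxcl1 and Cxcl2, mostly did not pass. Of 21 tested, 0 rose in edgeR or DESeq2 and 1 fell, with a median log2 fold change of 0.02, and 5 had an unadjusted p under 0.05, a share close to the 20.9% of all tested genes. Nfkb1, which encodes the p105 and p50 subunit, had 73.7 and 79.4 CPM in Cre, against 90.3 and 95.2 CPM in GFP (-0.28, adjusted p = 0.0109). The call of Nfkb1 was lost in DESeq2, with scaling by library size alone, and without Cre replicate 1 (adjusted p = 0.238), GFP replicate 1 (0.273) or GFP replicate 2 (0.307).

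The share of all genes called by the other settings gives the scale for the ligand calls. Scaling by library size alone called 2.40% of genes higher and 1.26% lower, with 3 and 0 ligand genes. DESeq2 called 1.90% higher and 1.10% lower, with 1 ligand gene higher (Ccl6) and 0 lower among the 15 to which it gave an adjusted p. Without a filter on low counts the shares were 0.0707% and 0.0471%, with 0 ligand genes. Robust dispersion estimates called 5.01% higher and 4.20% lower, with 4 and 1 ligand genes, Ccl7 being added. With the replicate number as a block the shares were 3.04% and 2.68%, with 3 and 1 ligand genes. At an adjusted p of 0.01 they were 1.77% and 1.52%, with 2 and 0 ligand genes. Without Cre replicate 1 the shares were 1.75% and 1.76%, and without Cre replicate 2 they were 1.37% and 1.16%, each time with Ccl12 and Ccl6 called. Without GFP replicate 1 they were 0.0268% and 0.0535%, and without GFP replicate 2 both were 0.

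**Figure D5:**
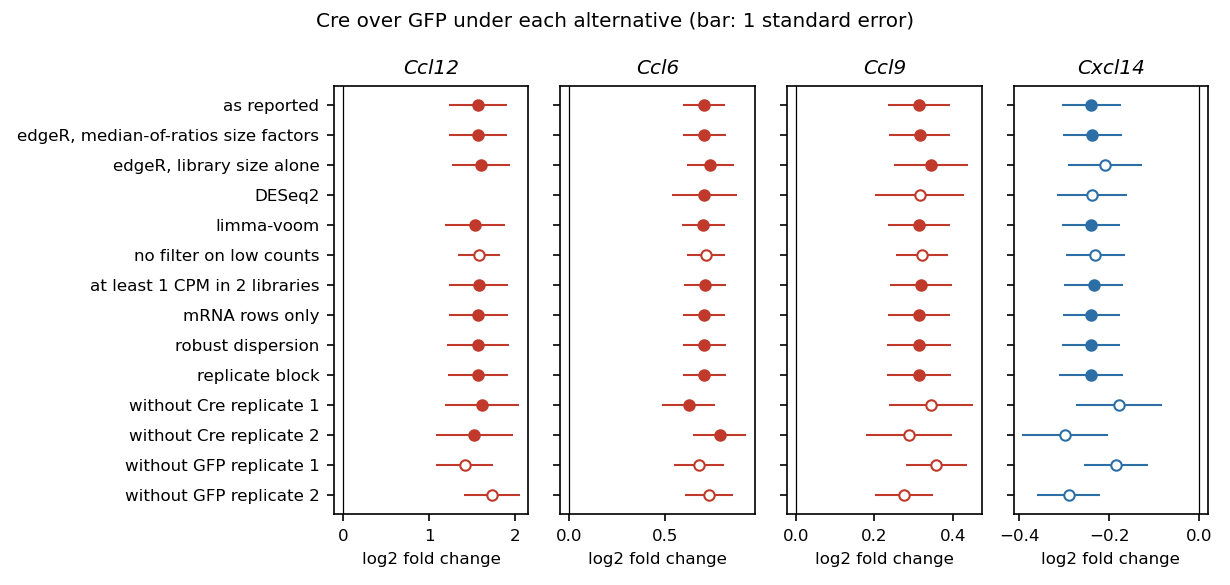
Log2 fold change, Cre over GFP, with a bar of 1 standard error, of the 4 called ligand genes as reported and under each alternative. Filled points passed an adjusted p of 0.05 and open points did not. All points of Ccl12, Ccl6 and Ccl9 lie above 0 and all of Cxcl14 below 0, and DESeq2 gave no adjusted p for Ccl12.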

How the data were processed

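Per the labels' protocols, libraries came from total RNA and a TruSeq RNA kit, a type that does not mark strand. The authors deposited whole-number read counts per gene for 4 libraries without normalization. The submitters' processing notes name HISAT2 and GRCm38; how reads were assigned to genes, with which annotation, and what became of multi-mapping reads is not given in the sources used. Counts were tested with edgeR 4.0.16 in R 4.3.3 after filterByExpr (minimum count 10, minimum total 15) and TMM scaling, with group as the only term in the quasi-likelihood test. The filter amounts to 0.737 CPM in 2 libraries. CPM values use TMM-scaled totals, and fold changes divide Cre by GFP. The replicates differed by more than sampling noise (median chi-square 1.78 times noise in Cre and 2.32 times in GFP, for genes above 200 counts in the pair). Members and gene lists were chosen with earlier results of these data known, and the motifs after the ligand values were seen. All ligand genes and the tested receptors of the list are named (1 item is not reported here), and of other lists up to 4 called genes per direction by smallest p. Emr1 and Darc stand for Adgre1 and Ackr1. The test was checked on simulated counts. Positions come from RefSeq (GRCm38.p6), and exon lengths, overlaps and shared 50-base stretches from GENCODE M21. Alternatives used DESeq2 1.42.0, limma 3.58.1 (voom), other scaling, filters, dispersion, a replicate block and leaving out each library.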

Additional observations from a re-analysis of the deposited data

How the results depend on the processing

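Over all tested genes 1009 passed. This number became 530 with scaling by library size alone, 376 in DESeq2, 30 without a filter on low counts, 477 at an adjusted p of 0.01, and 0 to 516 when 1 library was left out. Of the ligand genes, 3 rose; DESeq2 called 1 (Ccl6), edgeR without a filter called 0, and leaving out 1 library gave 0 to 2. The 1 fall, Cxcl14, became 0 with scaling by library size alone, in DESeq2, without a filter, at an adjusted p of 0.01, and 0 with each library left out. At an unadjusted p under 0.05 there were 9 of 20 ligand genes as reported (20.9% of all genes), 9 of 28 without a filter (10.8%), 6 of 20 in DESeq2 (10.1%), 6 of 20 without GFP replicate 1 (14.4%) and 7 of 20 without GFP replicate 2 (14.6%). Robust dispersion estimates called Ccl7 as well. With the replicate number as a block 829 genes passed, and the same 4 ligand genes. Same-numbered libraries did not deviate together over all tested genes (correlation -0.0089). Each deviation rests on 2 libraries and includes counting noise, so this value cannot show whether same-numbered libraries share an origin. Leaving out single libraries turned the sign of ligand genes that were not called, over the ranges -0.11 to 0.021 for Cx3cl1, -0.082 to 0.10 for Cxcl1, -0.68 to 0.80 for Ccl28, -0.011 to 0.52 for Ccl25 and -0.11 to 0.91 for Ccl27a. Among receptors the ranges were -0.44 to 0.12 for Cxcr4, -0.52 to 0.23 for Cxcr6, -0.021 to 0.23 for Xcr1 and -0.27 to 0.20 for Ccrl2. Scaling by library size alone gave 0.013 for Ccrl2. Where 1 library remained in a group, it was taken to vary as the other group does. The cause of these shifts was not tested.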

Other observations

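Genes whose proteins cut or hold chemokines moved in both directions. Of 11 tested, Mmp12, the macrophage elastase that trims several chemokines, rose, with 179 and 176 CPM in Cre, against 101 and 106 CPM in GFP (log2 fold change 0.78, adjusted p = 7.79e-10 in edgeR). The gelatinase gene Mmp9 (-0.46) and the syndecan gene Sdc4 (-0.25), whose heparan sulfate binds chemokines, fell. Mmp9 had 15.2 and 13.96 CPM in Cre, against 16.1 and 24.3 CPM in GFP, with GFP replicate 2 the highest. Without GFP replicate 2 the log2 fold change of Mmp9 was -0.14, and without GFP replicate 1 it was -0.73. Both falls were lost in DESeq2 (adjusted p = 0.638 for Mmp9 and 0.125 for Sdc4), with scaling by library size alone (0.105 and 0.159), and without any single library. None of the 3 genes passed without either GFP library, and the adjusted p of Mmp12 was then 0.0768 without GFP replicate 1 and 0.129 without GFP replicate 2. The sheddases of Cx3cl1 and Cxcl16, Adam10 (0.06) and Adam17 (0.06), did not pass.

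Markers of T cells, B cells, neutrophils and endothelial cells were at low levels. The T cell genes Cd3e, Cd3d and Cd3g were at 0 in all libraries, while Cd4, which some mouse myeloid cells also express, had 124 and 128 counts in Cre, against 72 and 57 counts in GFP, and rose (log2 fold change 0.75, adjusted p = 0.00270). The Cd4 call was lost in DESeq2 (adjusted p = 0.0974), without GFP replicate 1 (0.243) and without GFP replicate 2 (0.281). B cell markers had at most 11 counts in a library. Of 7 neutrophil markers S100a9 and Elane were at 0, the most abundant had at most 35 counts, and of the 2 tested edgeR called 0, with 0 at an unadjusted p under 0.05. Of 4 tested endothelial markers edgeR called 0, and 1 had an unadjusted p under 0.05. Osteoclast markers were uneven, and 2 were tested. Ctsk had 58.3 and 68.6 CPM in Cre, against 72.0 and 66.7 CPM in GFP, and did not pass (-0.13). Acp5 had 16.6 and 16.0 CPM in Cre, against 21.4 and 23.1 CPM in GFP, and fell (-0.45, adjusted p = 0.00653). Calcr, Ocstamp and Dcstamp had at most 7 counts in a library. The Acp5 call was lost in DESeq2 (adjusted p = 0.122), without Cre replicate 2 (0.0728), without GFP replicate 1 (0.246) and without GFP replicate 2 (0.295).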
